A study of Mus musculus with 22 samples.

Results

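*Gja1*, *Gja4*, *Gja5* and *Gjc1* encode the connexins Cx43, Cx37, Cx40 and Cx45 and were taken by name, as the connexin genes of blood vessels, from the 24454 gene symbols of a bulk RNA-seq count table. All 4 members were found in the table. *Gja1* had counts in all 22 libraries, *Gjc1* in 20, and *Gja4* and *Gja5* in 19. Each library held the RNA of 25 cells sorted from the aorta-gonad-mesonephros (AGM), the embryonic region around the dorsal aorta in which endothelial cells turn into blood cells. All cells came from untreated C57BL/6 mouse embryos and were sorted as VE-cadherin-positive, so every group shares that endothelial gate. They were split by the surface proteins CD44 and Kit into 4 populations. CD44Neg cells, called endothelial in the labels, gave 10 libraries, of which 4 were from E9.5, 3 from E10 and 3 from E11. CD44LowKitNeg cells (written CD44LoKitNeg in the labels, which call them haemogenic endothelium) gave 6 libraries, 1, 2 and 3 from these stages. CD44LowKitPos cells (CD44LoKitPos, Pre-HSPC in the labels, a step before haematopoietic stem and progenitor cells) gave 3 libraries (1 at E9.5 and 2 at E10). CD44High cells (HSPC in the labels) gave 3 libraries, all at E11. The labels do not say whether libraries of one group came from separate embryos, so p-values measure the spread between these libraries, which may be technical.

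Connexins are membrane proteins that assemble in rings into a hemichannel, and hemichannels of neighbouring cells dock to form a gap junction, a pore through which ions and small metabolites pass from cell to cell. Endothelium couples mainly through Cx37, Cx40 and Cx43, and Cx45 is used in early embryonic vessels and in smooth muscle. Cx40 and Cx37 are textbook features of arterial endothelium, where Notch signalling, SOXF factors and blood flow are known to act on their genes, whereas Cx43 is widespread, being found also in mesenchyme, smooth muscle and heart.

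In the GENCODE M21 annotation (GRCm38), the 4 genes lie on 4 chromosomes. *Gja1* is at chr10:56377330-56402513 on the plus strand, *Gja4* at chr4:127311421-127314039 on the minus strand, *Gja5* at chr3:96904693-97077416 on the plus strand and *Gjc1* at chr11:102799579-102819700 on the minus strand. All are protein coding. *Gja5* shares 165 exonic bases with *Gpr89* on the opposite strand, and *Gpr89* had 4202 counts over all libraries against 24139 for *Gja5*. The strand setting of the counting is not given in the sources used here, so reads from these shared bases cannot be told apart.

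Because *Gja4* and *Gja5* rose between the endothelial populations while the level of *Gja1* was lower, the promoters of these 3 genes are shown, as RefSeq gives them on GRCm38.p6, from 250 bases before to 50 after the start in that table. For *Gja5* this start lies inside the gene span given above, so the window does not cover the first base of that span. 3 of the 4 members had an entry, and *Gjc1* had none. Capitals mark the letters searched for on both strands, which were the SOX core ACAAT, the RBPJ core TGGGAA, the GATA motif AGATAA, the GC box GGGCGG, the KLF-type box CCACCC, the HEY-type E-box CACGTG, the TATA box TATAAA and the NKX2-5 core AAGTG.
Gja1, chr10:56377050-56377349, plus strand: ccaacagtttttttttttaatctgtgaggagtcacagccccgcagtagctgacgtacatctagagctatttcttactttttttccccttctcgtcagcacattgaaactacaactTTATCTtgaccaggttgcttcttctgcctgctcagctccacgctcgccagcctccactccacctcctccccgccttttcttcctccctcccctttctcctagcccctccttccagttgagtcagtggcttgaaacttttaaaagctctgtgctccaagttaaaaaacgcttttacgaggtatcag
Gja4, chr4:127313990-127314289, minus strand: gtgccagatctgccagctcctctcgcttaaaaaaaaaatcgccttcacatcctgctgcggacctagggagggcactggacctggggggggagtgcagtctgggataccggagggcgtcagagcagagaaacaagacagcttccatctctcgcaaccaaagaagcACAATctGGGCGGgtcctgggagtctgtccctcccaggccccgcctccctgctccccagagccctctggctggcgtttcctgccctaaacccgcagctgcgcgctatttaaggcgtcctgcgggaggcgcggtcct
Gja5, chr3:97032152-97032451, plus strand: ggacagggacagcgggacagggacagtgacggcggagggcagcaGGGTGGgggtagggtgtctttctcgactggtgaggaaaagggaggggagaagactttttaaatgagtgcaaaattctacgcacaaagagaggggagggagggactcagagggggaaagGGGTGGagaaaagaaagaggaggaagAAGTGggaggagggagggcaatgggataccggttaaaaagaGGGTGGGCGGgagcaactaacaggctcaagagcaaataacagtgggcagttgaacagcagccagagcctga
The *Gja4* window held 1 SOX core and 1 GC box, the *Gja5* window held 3 KLF-type boxes, 1 GC box that overlaps the last of them and 1 NKX2-5 core, and the *Gja1* window held 1 GATA motif. The RBPJ core, the E-box and the TATA box were in none of the 3 windows. Over 32851 promoters of the same length, 31.0% held the SOX core, 35.7% the GC box, 31.5% the KLF-type box, 46.4% the NKX2-5 core, 11.2% the GATA motif, 25.6% the RBPJ core, 7.15% the E-box and 13.6% the TATA box. The G+C content was 47.7% for *Gja1*, 62% for *Gja4* and 55.7% for *Gja5*, against a median of 52.7%. These matches describe the sequences and are not binding sites.

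The total of the counts ranged from 3912350 to 8657546 between libraries (median 5758382.5). Levels are given as normalized CPM, which is CPM after scaling by edgeR's TMM method over the 22 libraries, so that libraries of unequal total can be set side by side. Where a gene had no count, its level was limited to 3 counts, or 0.348 to 0.816 normalized CPM per library, for counting error only, because the reads carry no molecular identifiers. The labelled cell types were checked against marker genes. The summed level of 8 pan-endothelial markers was 2676 to 5089 normalized CPM in CD44Neg, 3195 to 7288 in CD44LowKitNeg and 737 to 1521 in CD44LowKitPos. It was 16.4 to 87.3 in CD44High, where *Cdh5*, which encodes the VE-cadherin used for the sort, had no count in any library. CD44High libraries held instead all 6 macrophage markers, summing to 1126 to 2913 normalized CPM against at most 53.0 elsewhere. The date in the labels changes with the stage, so stage and date cannot be told apart. In bulk samples, fewer cells of a type and less RNA per cell cannot be told apart either.

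*Gja4* was the most abundant member per length in both endothelial populations and *Gjc1* the least abundant. Divided by the length of the principal transcript (3182, 1685, 3109 and 2314 bases for *Gja1*, *Gja4*, *Gja5* and *Gjc1*), the level of *Gja4* was 218 ± 93.7 normalized CPM per kilobase in CD44Neg (SD, n = 10) and 847 ± 411 in CD44LowKitNeg (SD, n = 6). *Gja1* was at 129 ± 41.1 per kilobase in CD44Neg and at 60.1 ± 37.6 in CD44LowKitNeg. *Gja5* was at 25.7 ± 8.74 and 143 ± 85.0 per kilobase, and *Gjc1* at 10.6 ± 4.97 and 12.1 ± 6.92. The order of these means was thus *Gja4*, *Gja1*, *Gja5*, *Gjc1* in CD44Neg and *Gja4*, *Gja5*, *Gja1*, *Gjc1* in CD44LowKitNeg. It turned in 3 of the E9.5 libraries, since *Gja1* was above *Gja5* in the CD44LowKitNeg library of that stage (125 and 70.8 per kilobase) and above *Gja4* in CD44Neg replicates 4 (140 and 102) and 6 (155 and 108). The per-kilobase ranges of *Gja4* and *Gja1* overlapped in CD44Neg (102 to 381 and 66.4 to 203), and so did those of *Gja5* and *Gja1* in CD44LowKitNeg (70.8 to 302 and 19.1 to 125).

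**Figure D1:**
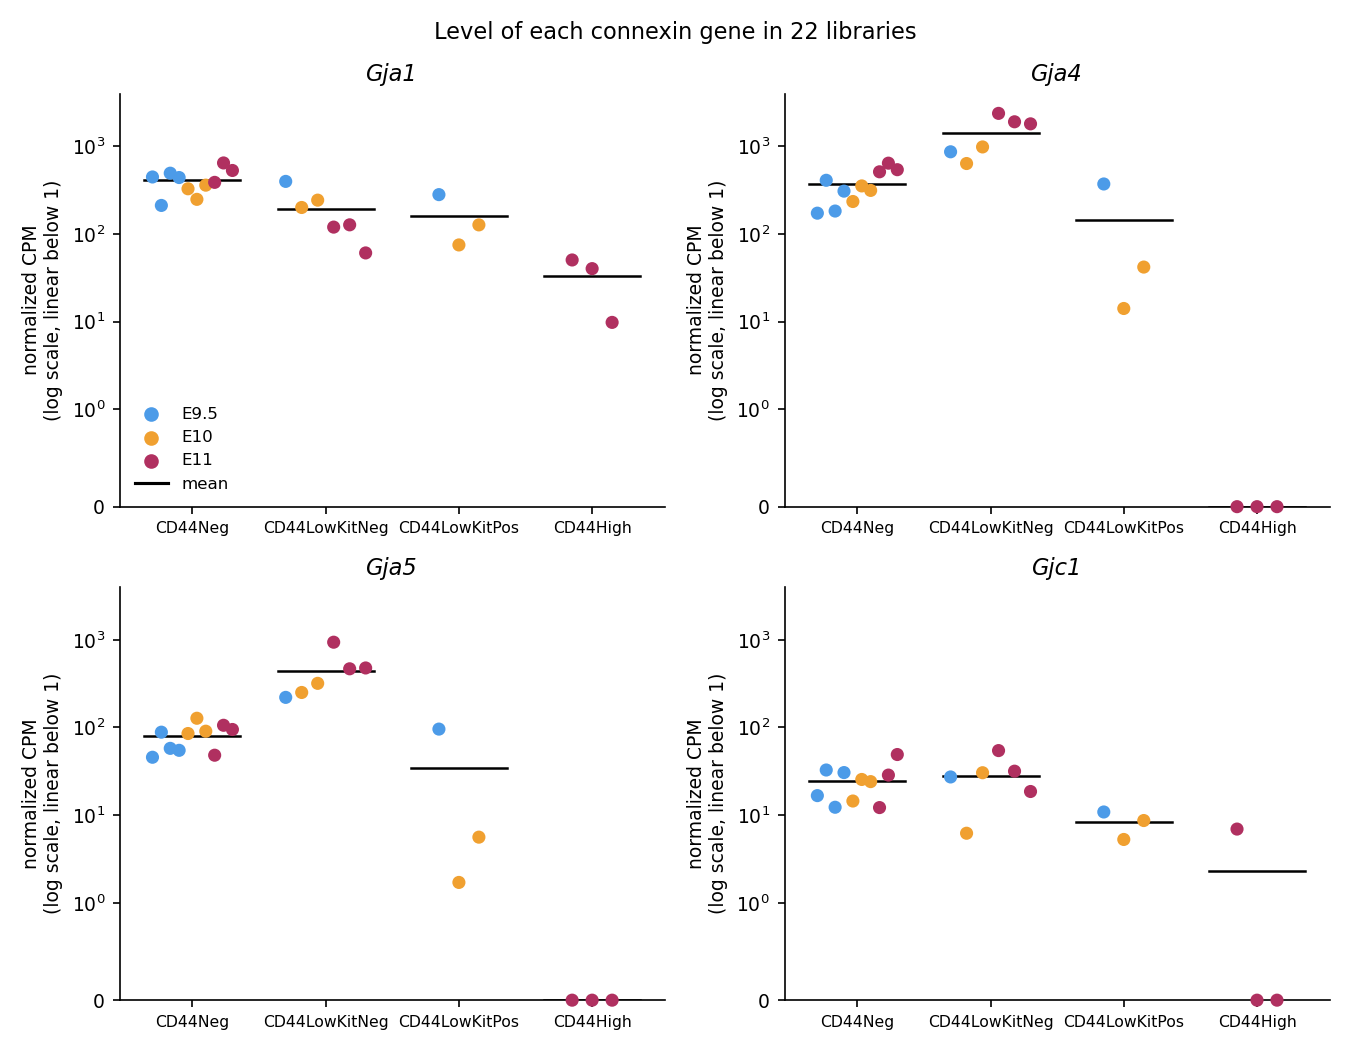
Level of each member in every library, in normalized CPM on an axis that is logarithmic above 1 and linear below it. Points are libraries coloured by stage and black lines are the means of the populations. *Gja4* and *Gja5* were highest on average in CD44LowKitNeg and at 0 in all 3 CD44High libraries, whereas *Gja1* was highest in CD44Neg.

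The main comparison set CD44LowKitNeg against CD44Neg endothelium. The arterial connexin gene *Gja5* rose most and *Gja4* rose with it, while *Gja1* was lower by an amount that missed the threshold and *Gjc1* hardly differed. *Gja5* had a lowest, median and highest level of 220, 393 and 938 normalized CPM in the 6 CD44LowKitNeg libraries and of 45.7, 86.8 and 127 in the 10 CD44Neg libraries. Every CD44LowKitNeg library thus lay above every CD44Neg library, as was so for 2.5% of the 11022 genes tested. The log2 fold change was 2.49 (SE 0.29, edgeR adjusted p = 1.05e-05), from the quasi-likelihood test with Benjamini-Hochberg adjustment over all genes tested, which is also the test behind every edgeR adjusted p given here. *Gja4* was at 636, 1393 and 2373 normalized CPM in CD44LowKitNeg (lowest, median and highest) and at 173, 333 and 642 in CD44Neg. Its ranges touched in 1 library, since the E10 replicate 15 of CD44LowKitNeg, at 636, lay just under the highest CD44Neg library from E11. The log2 fold change of *Gja4* was 1.97 (SE 0.30, edgeR adjusted p = 1.46e-04). At adjusted p under 0.01, 2 of the 4 members were called, both higher, where 10.2% of the genes tested were called and 4.94% were called higher. Permuting the population labels within stage gave p = 0.001 for each of *Gja4* and *Gja5* in an exact two-sided permutation test, the smallest value that its 1000 relabellings can give.

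Within each stage both genes were higher in CD44LowKitNeg without overlap, as were 28.4%, 18.7% and 14.5% of the genes tested, in order of stage. At E9.5 the only CD44LowKitNeg library had 865 normalized CPM of *Gja4* and 220 of *Gja5*, and the 4 CD44Neg libraries had 173 to 409 of *Gja4* and 45.7 to 88.3 of *Gja5*. At E10 the 2 CD44LowKitNeg libraries had 636 and 983 of *Gja4* and 251 and 318 of *Gja5*, above the 3 CD44Neg libraries at 234 to 353 and 85.2 to 127. At E11 the 3 CD44LowKitNeg libraries had 1803, 1903 and 2373 of *Gja4* and 467, 477 and 938 of *Gja5*, above the CD44Neg libraries at 512 to 642 and 48.2 to 106. The ratio of mean levels was 3.23, 2.69 and 3.59 for *Gja4* and 3.57, 2.82 and 7.56 for *Gja5* at E9.5, E10 and E11. With the E11 libraries alone both were called (edgeR adjusted p = 2.60e-04 for *Gja4* and 0.00206 for *Gja5*), where 3.41% of genes were called, as they were at E9.5 and E10 with stage as a covariate (0.00205 and 6.44e-04), where 3.76% of genes were called. With the 2 against 3 libraries of E10 alone they were not (edgeR adjusted p = 0.0489 and 0.0442), in a fit that called 0.00894% of genes. The summed level of the 8 pan-endothelial markers was also higher in CD44LowKitNeg at E11, at 6265 to 7288 normalized CPM against 4543 to 5089, and its part in the difference was not tested.

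*Gja1*, whose product Cx43 is the most widely expressed connexin, went the other way. Its lowest, median and highest levels were 60.7, 164 and 398 normalized CPM in CD44LowKitNeg and 211, 414 and 645 in CD44Neg. No CD44LowKitNeg library lay above the CD44Neg median, but the 2 ranges overlapped. The log2 fold change was -1.09 (SE 0.32, edgeR adjusted p = 0.0185), which missed the threshold. DESeq2's Wald test (adjusted p = 0.00373) and limma voom (adjusted p = 0.00537) called it, in fits that called 15.8% and 12.4% of genes, and the exact two-sided permutation test within stage gave p = 0.017. The call turned on the single E9.5 library of CD44LowKitNeg, replicate 14 at 398 normalized CPM. Without it the log2 fold change was -1.41 (edgeR adjusted p = 0.00236), where 10.9% of genes were called.

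The difference in *Gja1* was largest at E11. The 3 CD44LowKitNeg libraries of that stage had 60.7, 120 and 127 normalized CPM, and the 3 CD44Neg libraries had 388, 530 and 645. The groups did not overlap, as was so in this direction for 19.2% of the genes tested. With these libraries alone the log2 fold change was -2.29 (SE 0.31, edgeR adjusted p = 0.00274), where 3.41% of genes were called. At E10 the levels were 200 and 243 normalized CPM in CD44LowKitNeg and 248, 328 and 360 in CD44Neg. These did not overlap either, as was so in this direction for 21.1% of the genes tested, and the log2 fold change was -0.42 (SE 0.25, edgeR adjusted p = 0.425). At E9.5 the single CD44LowKitNeg library, at 398, was within the CD44Neg range of 211 to 493. The E9.5 and E10 libraries together, with stage as a covariate, gave -0.25 (SE 0.25, edgeR adjusted p = 0.577).

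The change of the population difference between stages was tested as an interaction. From E10 to E11 the change in the log2 difference of *Gja1* was -1.87 (SE 0.42, edgeR adjusted p = 0.131), a value that missed the threshold in a test that called 1 of 12403 genes (0.00806%). None of the 4 members was called by edgeR or by limma voom, 2 of 4 had an unadjusted p under 0.05, as did 1321 of the genes, and DESeq2 called 1, *Gja1* (adjusted p = 0.00284), where it called 0.976% of genes. The change was 1.40 for *Gja5* (SE 0.49, edgeR adjusted p = 0.313), 0.40 for *Gja4* (SE 0.30, 0.693) and 0.42 for *Gjc1* (SE 1.0, 0.962), the last turning to -0.31 without CD44LowKitNeg replicate 15. With E9.5 and E10 pooled over all 16 libraries, an alternative chosen after seeing the data, the change of *Gja1* was -2.04 (SE 0.40, edgeR adjusted p = 0.0222), where 0.197% of genes were called.

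**Figure D2:**
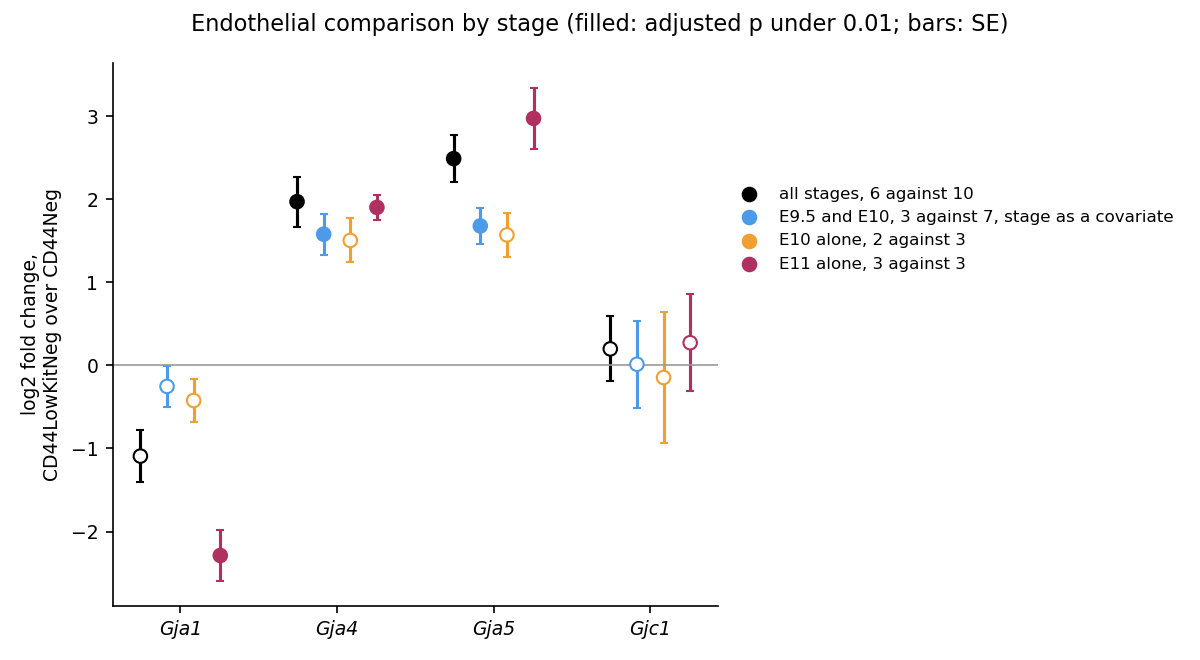
Log2 fold change of each member in CD44LowKitNeg over CD44Neg, with all stages, with E9.5 and E10 together, with E10 alone and with E11 alone. Bars are standard errors and filled points passed an edgeR adjusted p of 0.01. *Gja4* and *Gja5* were above 0 in each fit, *Gja1* reached -2.29 at E11 from -0.25 at the earlier stages, and *Gjc1* stayed within its error of 0.

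*Gjc1*, which encodes Cx45, was low in both endothelial populations. Its lowest, median and highest levels were 6.21, 28.8 and 54.4 normalized CPM in CD44LowKitNeg and 12.2, 24.8 and 49.1 in CD44Neg, on 37 to 405 and 46 to 317 counts per library. The ranges overlapped almost entirely. The log2 fold change was 0.20 (SE 0.39, edgeR adjusted p = 0.786; exact two-sided permutation p = 0.974), and it was -0.10 without CD44LowKitNeg replicate 11 and -0.15 with E10 alone.

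Connexins also mark tissues around vessels, so markers of other cell types were summed beside these results. The 8 mural and smooth muscle markers summed to 112 to 356 normalized CPM in CD44LowKitNeg and to 0.465 to 134 in CD44Neg, and were higher in CD44LowKitNeg without overlap at each stage. *Acta2*, smooth muscle actin, accounted for the smallest adjusted p of that list, with a log2 fold change of 2.65 (SE 0.87, edgeR adjusted p = 0.0359), and none of its 3 tested genes was called. Of the 8 markers, 6 had counts in CD44LowKitNeg and 7 in CD44Neg, all 3 tested had log2 fold changes above 0 (median 1.84), and *Myh11* and *Des* had no count in CD44LowKitNeg. The 9 mesenchyme markers summed to 2.16 to 57.7 in CD44LowKitNeg and to 0 to 13.8 in CD44Neg, with *Col1a1*, *Lum* and *Wt1* at 0 throughout both. The 5 cardiomyocyte markers summed to at most 6.99 and 7.59. The 4 epithelial markers summed to 26.5 to 87.2 in CD44LowKitNeg and to 0 to 33.5 in CD44Neg, and were higher in CD44LowKitNeg without overlap at each stage. The 7 blood markers summed to 83.8 to 263 in CD44LowKitNeg and 6.69 to 39.8 in CD44Neg at E9.5 and E10, and to 3.75 to 16.1 and 5.84 to 23.8 at E11. The 6 erythroid markers summed to 31.9 in the CD44LowKitNeg library of E9.5 and to 2.61 to 22.7 in CD44Neg at that stage. In the same order they summed to 13.8 to 22.5 and 3.57 to 14.3 at E10, and to 32.2 to 61.3 and 5.56 to 23.7 at E11. The part of all these markers in the levels of the connexins was not tested.

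The make-up of the connexin transcripts therefore differed between the populations. As a percentage of the summed per-kilobase level of the 4 genes, *Gja1* took 34.9 ± 11.5% in CD44Neg (SD, n = 10) and 7.64 ± 6.44% in CD44LowKitNeg (SD, n = 6). Its share in CD44LowKitNeg was 17.3% in the E9.5 library, 9.85% and 12% at E10, and 1.53%, 2.12% and 3.00% at E11. *Gja4* took 55.3 ± 10.8% and 78.1 ± 6.22%, *Gja5* 7.02 ± 2.61% and 13.2 ± 2.67%, and *Gjc1* 2.80 ± 0.97% and 1.14 ± 0.50%. The *Gja1* ranges, 18.9% to 54.0% in CD44Neg and 1.53% to 17.3% in CD44LowKitNeg, did not overlap. A share also falls where another member rises, as *Gja4* did, and the levels of *Gja1* themselves overlapped between the populations. In the E9.5 CD44LowKitNeg library *Gja1* was at 398 normalized CPM, as was the mean of the CD44Neg libraries of that stage. These shares rest on the transcript length used. With the merged length of all exons, *Gja1* took 15.9 ± 7.18% and 2.79 ± 2.43%, and *Gja4* 76.9 ± 7.54% and 88.5 ± 2.84%. Independently of length, there were 21.5 ± 7.5 reads of *Gja4* per read of *Gja1* in CD44LowKitNeg at E11 (SD, n = 3) and 1.11 ± 0.18 in CD44Neg at E11 (SD, n = 3). The number of *Gja4* reads per read of *Gja5* at E11 was 3.46 ± 0.82 in CD44LowKitNeg (SD, n = 3) and 7.46 ± 2.73 in CD44Neg (SD, n = 3).

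**Figure D3:**
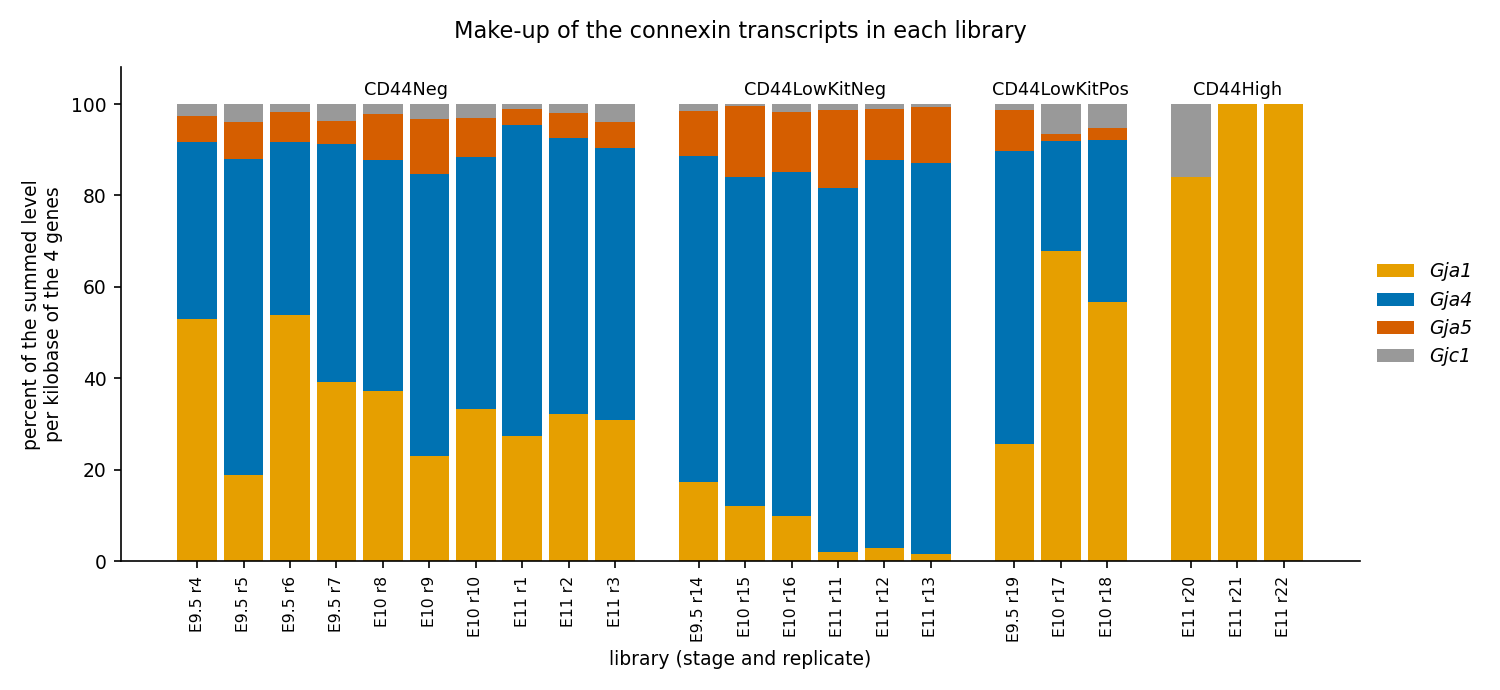
Share of each member in the summed level per kilobase of the 4 genes, in percent, in every library, ordered by population and stage (r, replicate). *Gja4* took 71.2% to 85.6% in CD44LowKitNeg, *Gja1* took 1.53% to 3.00% there at E11, and *Gja1* took 84.1% to 100% in CD44High.

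The genes listed around the arterial connexins were compared in the same fit. Of 9 arterial markers besides *Gja5*, 8 were tested, 4 were called higher and none lower, with a median log2 fold change of 1.62 against 0.00503 over all genes tested. *Efnb2*, the ephrin ligand of arteries, rose by a log2 fold change of 2.03 (SE 0.16, edgeR adjusted p = 4.22e-07). *Nrp1*, a VEGF co-receptor, rose by 1.53 (SE 0.15, edgeR adjusted p = 2.60e-06), and *Hey2*, a Notch target gene, by 4.10 (SE 0.54, edgeR adjusted p = 3.57e-05). Of 4 venous markers, 3 were called lower. *Nrp2* had a log2 fold change of -5.30 (SE 0.81, edgeR adjusted p = 1.56e-04), *Aplnr*, the apelin receptor, of -4.48 (SE 1.01, 0.00372) and *Nr2f2*, which encodes the venous factor COUP-TFII, of -4.01 (SE 0.93, 0.00441).

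Of 19 Notch, SOXF and shear-linked regulators, 17 were tested, 4 were called higher and none lower, with a median log2 fold change of 0.88. *Jag1*, a Notch ligand, rose from 89.6 ± 43.3 to 810 ± 224 normalized CPM (log2 fold change 3.18, SE 0.29, edgeR adjusted p = 8.04e-07). *Hey1*, a Notch target, rose from 95.3 ± 43.4 to 334 ± 40.4 (1.81, SE 0.23, edgeR adjusted p = 2.32e-05). *Hey2*, *Sox17* and *Dll4* stand both in this list and among the arterial markers. The SOXF genes did not pass, with log2 fold changes of 1.14 for *Sox17* (SE 0.30, edgeR adjusted p = 0.0109), 0.87 for *Sox7* (SE 0.25, 0.0193) and -0.20 for *Sox18* (SE 0.31, 0.715). The flow-responsive *Klf2* was at 0.22 (SE 0.35, edgeR adjusted p = 0.717). These 4 genes were chosen after their values were seen, because the promoters were searched for SOX and KLF letters.

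Genes whose products bind or traffic connexins gave 1 called higher and 2 called lower of 18 tested, with a median log2 fold change of 0.0138. *Tjp1*, which encodes the scaffold ZO-1 that binds connexin tails, rose from 171 ± 31.6 (SD, n = 10) to 451 ± 31.4 normalized CPM (SD, n = 6; log2 fold change 1.40, SE 0.14, edgeR adjusted p = 2.16e-06). *Ap2m1*, a subunit of the clathrin adaptor of endocytosis, fell from 238 ± 32.0 to 136 ± 14.2 (-0.81, SE 0.14, edgeR adjusted p = 3.47e-04). Among the pan-endothelial markers, *Tek* and *Cdh5* were called higher, with log2 fold changes of 1.41 (SE 0.17, edgeR adjusted p = 1.87e-05) and 1.48 (SE 0.24, 3.00e-04), and the other 6 were not called.

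**Figure D4:**
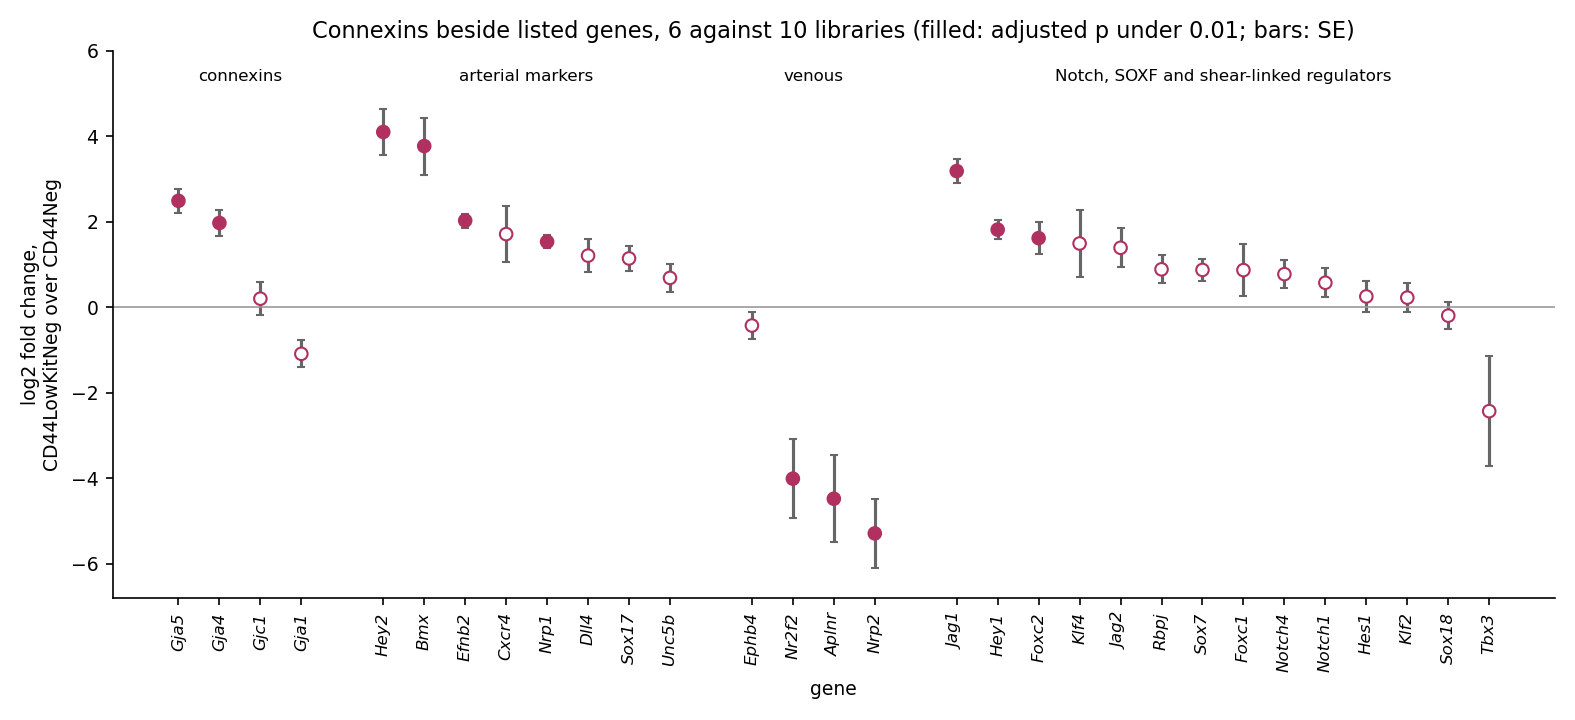
Log2 fold change in CD44LowKitNeg over CD44Neg for the 4 connexins, the arterial and venous markers and the Notch, SOXF and shear-linked regulators that were tested, each gene drawn once. Bars are standard errors and filled points passed an edgeR adjusted p of 0.01. *Gja5* and *Gja4*, at 2.49 and 1.97, lay in the range of the called arterial markers, and 3 of 4 venous markers lay at or below -4.01.

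Kit-positive cells of the CD44Low gate had less of both arterial connexins. The E9.5 library of CD44LowKitPos, replicate 19, had 371 normalized CPM of *Gja4* and 95.7 of *Gja5*, and the 2 E10 libraries had 14.1 and 41.9 of *Gja4* and 1.71 and 5.60 of *Gja5*. The E10 libraries were thus far below the 2 CD44LowKitNeg libraries of their stage, 28.9 times lower in mean for *Gja4* and 77.8 times for *Gja5*, and the E9.5 library was 2.33 and 2.30 times lower than its CD44LowKitNeg counterpart. In the fit of all 22 libraries, *Gja4* fell by 3.32 on the log2 scale (SE 0.76, edgeR adjusted p = 0.00744) and *Gja5* had a log2 fold change of -3.70 (SE 0.85, edgeR adjusted p = 0.00748). So 2 of 4 members were called, where 4.26% of 12949 genes were called and 1.71% were called lower. *Gja1* had 281 normalized CPM in the E9.5 library and 74.9 and 127 at E10, with a log2 fold change of -0.25 (SE 0.49, edgeR adjusted p = 0.802). That fit includes the E11 libraries of CD44LowKitNeg, whereas its earlier libraries had 398 of *Gja1* at E9.5 and 200 and 243 at E10. With the E9.5 and E10 libraries alone and stage as a covariate, the log2 fold change of *Gja1* was -0.96 (SE 0.28, edgeR adjusted p = 0.120), where 0.0169% of genes were called. *Gjc1* had 10.9, 5.27 and 8.67, with a log2 fold change of -1.76 (SE 0.86, edgeR adjusted p = 0.185).

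The size of this fall rested on replicate 19, and the calls on several libraries. Without replicate 19 the log2 fold changes were -5.69 for *Gja4* and -6.93 for *Gja5* (edgeR adjusted p = 4.21e-05 and 8.59e-06), where 4.86% of genes were called. Without CD44LowKitPos replicate 17 or 18 they were -2.82 and -2.92 for *Gja4* and -3.16 and -3.22 for *Gja5*, and neither gene was called (edgeR adjusted p = 0.0386 and 0.0425, and 0.0348 and 0.0359), in fits that called 0.48% and 1.18% of genes. Without CD44LowKitNeg replicate 11, 12 or 13 the log2 fold changes hardly moved, at -3.15, -3.25 and -3.28 for *Gja4* and -3.37, -3.71 and -3.71 for *Gja5*, but neither gene was called (edgeR adjusted p = 0.0138, 0.0140 and 0.0130, and 0.0139, 0.0128 and 0.0125), where 2.66%, 2.43% and 2.60% of genes were called. With the E9.5 and E10 libraries alone and stage as a covariate they were larger in size, at -3.80 (SE 0.90) and -4.78 (SE 1.24), and were not called (edgeR adjusted p = 0.0881 and 0.0976) in a fit that called 2 of 11866 genes (0.0169%). The summed pan-endothelial level was 737 to 1521 normalized CPM in CD44LowKitPos against 3195 to 7288 in CD44LowKitNeg, where 4 of its 8 markers were called lower. By library it was 1521 in replicate 19 and 737 and 1072 in replicates 17 and 18. The 7 blood markers went the other way, summing to 439 in replicate 19 and to 1264 and 1117 in replicates 17 and 18, against 3.75 to 263 in CD44LowKitNeg, with 3 of 7 called higher, and 5 of 7 against CD44Neg. The part of both lists in the levels of the connexins was not tested.

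Against CD44Neg, the CD44LowKitPos libraries gave no called member, where edgeR called 3.48% of genes. 2 of 4 members had an unadjusted p under 0.05, as did 2631 of the 12949 genes, and neither DESeq2 nor limma voom, which called 6.40% and 5.63% of genes, called any. The log2 fold changes were -1.35 for *Gja1* (SE 0.50, edgeR adjusted p = 0.107), -1.36 for *Gja4* (SE 0.65, 0.239), -1.22 for *Gja5* (SE 0.70, 0.351) and -1.57 for *Gjc1* (SE 0.81, 0.284). The E9.5 library again stood apart, its *Gja4* and *Gja5* levels being 1.39 and 1.55 times the mean of the CD44Neg libraries of that stage, whereas the E10 libraries were 10.7 and 27.6 times below theirs. Without replicate 19 both genes were called, at -3.71 and -4.43 (edgeR adjusted p = 6.64e-04 and 1.20e-04), where 4.65% of genes were called. All 3 CD44LowKitPos libraries were below every CD44Neg library for *Gjc1*, as was so for 4.37% of the genes tested. The mural and smooth muscle markers summed to 148 to 300 normalized CPM in CD44LowKitPos and to 0.465 to 134 in CD44Neg. The epithelial markers summed to 64.5 to 74.2 and to 0 to 33.5. None of the 5 and 3 tested genes of these lists was called, and their part in the levels of the connexins was not tested. CD44LowKitPos and CD44LowKitNeg were compared with each other and with CD44Neg through shared libraries, so these results are not independent.

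*Gja4* and *Gja5* had no count in any CD44High library. With 3 counts per library as the limit, *Gja4* was at least 1938-fold higher in CD44LowKitNeg, at least 498-fold higher in CD44Neg and at least 194-fold higher in CD44LowKitPos. The corresponding limits for *Gja5* were at least 605-fold, 108-fold and 46.7-fold higher. Without replicate 19 the limits for CD44LowKitPos were 38.0-fold for *Gja4* and 4.96-fold for *Gja5*. *Gja1* was still present, with 50.5, 40.2 and 9.79 normalized CPM in the 3 CD44High libraries, below the 19 other libraries, as was so for 3.73% of the genes tested. *Gjc1* had 35 counts (6.93 normalized CPM) in replicate 20 and none in replicates 21 and 22, where 0 counts allow up to 0.799 and 0.816.

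The edgeR fit of all 22 libraries called 4 of 4 members lower in CD44High than in CD44LowKitNeg, where 16% of genes were called and 8.17% were called lower. All 8 pan-endothelial markers were called lower too, with a median log2 fold change of -7.77, as were all 8 against CD44Neg (median -6.88) and 7 of 8 against CD44LowKitPos (median -5.64), and their part in the differences of the connexins was not tested. *Gja1* had a log2 fold change of -2.51 (SE 0.56, edgeR adjusted p = 0.00169) and *Gjc1* of -3.54 (SE 0.97, 0.00832), and *Gja4* and *Gja5* were called at 2.43e-07 and 2.34e-06. Limma voom called 3 of 4, without *Gja1* (adjusted p = 0.0259), where it called 17.8% of genes. Against CD44Neg 3 of 4 were called, where 14.4% of genes were called and 7.25% lower. *Gja1* was at -3.61 (SE 0.59, edgeR adjusted p = 6.04e-05), and *Gjc1*, at -3.35 (SE 0.93, 0.0103), was just outside the threshold. *Gjc1* was called, and so 4 of 4, by edgeR with stage as a covariate (adjusted p = 0.00956), by DESeq2 (8.50e-05) and by limma voom (0.00324), in fits that called 14.6%, 17.4% and 13.9% of genes. It was not called with the E11 libraries alone (-3.65, SE 1.42, edgeR adjusted p = 0.113), where 9.65% of genes were called, or with only these populations in the fit (-3.32, 0.0188), where 16.2% were. Against CD44LowKitPos 2 of 4 were called, *Gja4* and *Gja5* (edgeR adjusted p = 2.27e-05 and 4.98e-04), where 3.01% of genes were called and 2.23% lower. Limma voom called none of the 4, where it called 3.75% of genes, and DESeq2 called 3, *Gja1* included (adjusted p = 0.00216), where it called 5.53% of genes. *Gja1* was at -2.26 (SE 0.60, edgeR adjusted p = 0.0218) and *Gjc1* at -1.78 (SE 0.97, 0.355), and no stage holds both of these populations. With the E11 libraries alone, *Gja4* and *Gja5* were called against CD44LowKitNeg (edgeR adjusted p = 9.26e-05 and 2.26e-04), where 10.3% of genes were called, but *Gja1* (-1.72, SE 0.61, edgeR adjusted p = 0.0775) and *Gjc1* (-3.94, SE 1.51, 0.0959) were not.

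The call of *Gja1* against CD44LowKitNeg also rested on CD44High replicate 22, without which it was -2.14 (edgeR adjusted p = 0.0137) in a fit that called 9.87% of genes. That of *Gjc1* was lost without CD44High replicate 21 or 22, at -3.03 in both (edgeR adjusted p = 0.0317 and 0.0346), and without CD44LowKitNeg replicate 11, 12, 14 or 16, at -3.26, -3.52, -3.55 and -3.53 (0.0164, 0.0127, 0.0103 and 0.0118), against -3.54 with all libraries. These fits called 9.87% to 16.9% of genes. Without replicate 20, the only CD44High library with *Gjc1* counts, *Gjc1* was called against CD44Neg and against CD44LowKitPos (edgeR adjusted p = 2.06e-05 and 6.44e-04), where 9.95% and 2.49% of genes were called. The 2 CD44High libraries with more *Gja1*, replicates 20 and 21, also had mural and smooth muscle markers at 828 and 597 normalized CPM and mesenchyme markers at 149 and 102, whereas replicate 22, with 9.79 of *Gja1*, had 0 and 0.272. The part of these markers, and of the macrophage markers of CD44High, in the levels of *Gja1* was not tested.

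Stage was compared within the populations. In CD44Neg, *Gja4* was at 512, 642 and 541 normalized CPM at E11 and at 173, 409, 183 and 308 at E9.5, with no overlap, as was so in this direction for 9.86% of the genes tested. The log2 fold change was 1.10 (SE 0.26, edgeR adjusted p = 0.0355), so that edgeR called none of the 4 members, where it called 0.684% of 11250 genes. 1 of 4 had an unadjusted p under 0.05, as did 1925 of the genes, and DESeq2 and limma voom each called 1, *Gja4* (adjusted p = 0.00137 and 0.00613), in fits that called 3.81% and 1.53% of genes. The summed pan-endothelial level was 4543 to 5089 normalized CPM at E11 and 2676 to 3349 at E9.5, with 3 of 8 markers called higher. The mural and smooth muscle markers summed to at most 6.23 at E11 and to a median of 67.2 and a highest value of 134 at E9.5, with no overlap and 1 of 3 tested markers called lower. The epithelial markers summed to 0 to 1.95 at E11 and to 3.73 to 33.5 at E9.5, and the 1 tested gene of that list was not called. The part of these lists in the difference of *Gja4* was not tested. Without CD44Neg replicate 5, the E9.5 library with the most *Gja4*, edgeR called it too (1.35, edgeR adjusted p = 0.00967), where 0.674% of genes were called. *Gja1*, *Gja5* and *Gjc1* had log2 fold changes of 0.41 (SE 0.26), 0.45 (SE 0.31) and 0.40 (SE 0.51). From E9.5 to E10, edgeR called 0.0178% of genes and no member, 1 of 4 members and 1709 of the 11250 genes had an unadjusted p under 0.05, and neither DESeq2 (2.05% of genes called) nor limma voom (0.196%) called a member. From E10 to E11 edgeR called 0 of 11250 genes (0%), with 977 at an unadjusted p under 0.05, of which 2 were members, *Gja4* at 0.92 (SE 0.28) and *Gja1* at 0.74 (SE 0.28), and neither DESeq2 (0.4% of genes called) nor limma voom (0.0356%) called a member.

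In CD44LowKitNeg, *Gja4* and *Gja5* were higher at E11 than in the earlier libraries and *Gja1* was lower, with no overlap for any of the 3. Of the 11010 genes tested, 11.9% were higher without overlap in this way and 13.4% lower. The E11 levels were 1803 to 2373 normalized CPM for *Gja4*, against 636 to 983 in the E9.5 library and the 2 E10 libraries. For *Gja5* they were 467 to 938 against 220 to 318, and for *Gja1* 60.7 to 127 against 200 to 398. The log2 fold changes were 1.33 for *Gja4* (SE 0.20, edgeR adjusted p = 0.0182), 1.29 for *Gja5* (SE 0.30, 0.0659), -1.41 for *Gja1* (SE 0.36, 0.0829) and 0.75 for *Gjc1* (SE 0.66, 0.659). None of the 4 was called by edgeR, which called 0.173% of 11010 genes with 3 libraries against 3. 3 of 4 had an unadjusted p under 0.05, as did 1851 of the genes, DESeq2 called those 3 (adjusted p = 1.27e-08, 6.45e-04 and 0.00262), and limma voom called *Gja4* (adjusted p = 0.00313), in fits that called 5.07% and 0.618% of genes. The summed pan-endothelial level was 6265 to 7288 normalized CPM at E11 and 3195 to 4356 earlier, with none of its 8 markers called. The summed blood marker level was 3.75 to 16.1 at E11 and 83.8 to 263 earlier, with 1 of 5 tested markers called lower. The mural and smooth muscle markers summed to 112, 157 and 197 at E11 and to 227, 256 and 356 earlier, and the erythroid markers to 32.2 to 61.3 and 13.8 to 31.9, so neither list overlapped between the stages, and none of their 4 and 3 tested genes was called. The part of these 4 lists in the stage differences of the connexins was not tested.

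The rest of the gene family had few counts or none. Of 16 other connexin genes, 12 had no count in any library and 3 had 10 counts or more in a library. *Gja6* had counts in 3 of 10 CD44Neg, 4 of 6 CD44LowKitNeg and 1 of 3 CD44High libraries, with at most 84. *Gje1* had 66 counts in 1 CD44LowKitNeg library. Of 3 pannexins, channel proteins that resemble connexins in shape, *Panx1* had counts in all 22 libraries. Its levels were 13.2 ± 8.33 normalized CPM in CD44Neg (SD, n = 10), 13.6 ± 5.75 in CD44LowKitNeg (SD, n = 6), 26.5 ± 9.53 in CD44LowKitPos (SD, n = 3) and 20.3 ± 1.97 in CD44High (SD, n = 3), and CD44LowKitNeg differed from CD44Neg by a log2 fold change of 0.05 (SE 0.54, edgeR adjusted p = 0.963).

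The genes most like each member were taken by Pearson's r of log2 CPM, with a prior count of 2, as a description. The libraries share depth, populations and stages, so no p is given. Over the 22 libraries and 12949 genes, *Gja5* was most like *Gja4* (r = 0.979), *Dll4* (0.973) and *Tmem2* (0.969), and *Gja4* most like *Ptprb* (0.993), *Clec14a* (0.989) and *Sox7* (0.989), with *Gja5* at rank 7. *Gja1* was most like *Arxes1* (0.928), *Ets1* (0.920) and *Tpm4* (0.919), and *Gjc1* most like *Fam57a* (0.932), *Tead2* (0.931) and *Klhl4* (0.928). Over the 16 endothelial libraries and 11022 genes, *Gja5* was most like *Ctsh* (0.976), *Tek* (0.963) and *Syt15* (0.942), and *Gja4* most like *Ctsl* (0.942), *Ptprb* (0.940) and *Smarcc2* (0.930). There *Gja1* was most like *Arhgap18* (0.910), *Usp39* (0.903) and *Gng11* (0.900), and *Gjc1* most like *Ctdsp1* (0.821), *Akap11* (0.803) and *Slc39a3* (0.793). Within the endothelial libraries r was 0.910 between *Gja4* and *Gja5*, -0.787 between *Gja1* and *Gja5* and -0.708 between *Gja1* and *Gja4*, whereas over all 22 libraries, with *Gja4* and *Gja5* at 0 in CD44High, the last 2 pairs had r of 0.628 and 0.693 but Spearman's rho of only 0.17 and 0.23.

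**Figure D5:**
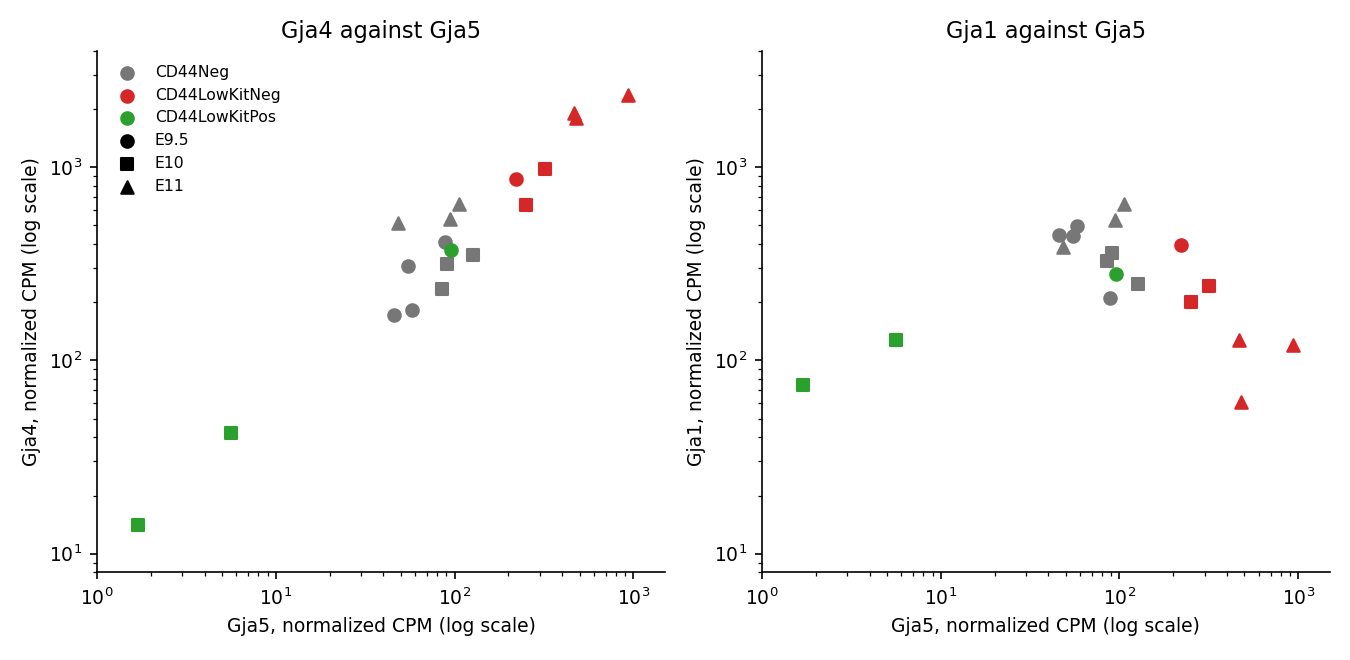
Level of *Gja4* (left) and *Gja1* (right) against *Gja5* in the 19 libraries outside CD44High, in normalized CPM on logarithmic axes, with population as colour and stage as symbol. *Gja4* and *Gja5* were both lowest in the E10 CD44LowKitPos libraries and highest in the E11 CD44LowKitNeg libraries, while *Gja1* was lowest among the endothelial libraries where *Gja5* was highest.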

How the data were processed

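RNA of 25 sorted cells per library was amplified by SMART-Seq2 and sequenced, and 22 libraries were mapped to populations and stages by their labels. The values are raw read counts per gene deposited by the authors, who clipped reads with the FASTX toolkit, aligned them with RNA STAR (mm10 per the labels) and counted them with HTSeq. The annotation and strand setting of the counting are not given in the sources used here. PCR duplicates carry no molecular identifiers, so the limit of 3 counts covers counting error only. Replicates of a group differed beyond sampling noise in all 20 pairs compared (chi-square per degree of freedom 17.0 to 85.2). *Rn45s*, a ribosomal RNA gene, took 1.92% to 23.9% of counts.

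Counts were tested with edgeR 4.0.16 in R 4.3.3 (TMM scaling, filterByExpr with a minimum count of 10 and a minimum total of 15, quasi-likelihood test, Benjamini-Hochberg adjustment over all genes tested), with an adjusted p under 0.01 as the threshold for a call. CD44LowKitNeg was compared with CD44Neg in a fit of those 16 libraries, and the other populations in a fit of all 22. DESeq2 1.42.0, limma voom 3.58.1, other scalings, filters, stage settings and leaving out each library were alternatives. Levels per kilobase used GENCODE M21 transcript lengths. Up to 3 genes with the smallest adjusted p were named per list. Some genes of the lists are not reported here. The members and the gene lists were chosen with earlier results of these data known, so no p over a list is given. Figures were drawn with matplotlib 3.10.9.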

Additional observations from a re-analysis of the deposited data

Results flagged for a closer look

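Among 12 groups of 4 to 10 libraries tested, 1 value lay apart from its group. *Gja5* in CD44LowKitNeg replicate 11, from E11, was at 938 normalized CPM, and the next of the 6 libraries was at 477. The gap was 0.642 of the range of the group, above Dixon's critical value for 6 libraries. Chance gives about 1 such value in 20 groups. Without this library the log2 fold change of *Gja5* against CD44Neg was 2.12.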

How the results depend on the processing

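No paired analysis was possible because the replicate numbers in the labels are unique to each library and no groups share one. In CD44LowKitNeg against CD44Neg, *Gja4* and *Gja5* kept direction under every alternative run and were not called only with E10 alone (1.5 and 1.57), where 0 members were called. *Gja1* was called by DESeq2 (-1.04), limma voom (-1.26) and with E11 alone (-2.29). Leaving out 1 library gave -1.41 to -0.91 for *Gja1*, 1.76 to 2.14 for *Gja4*, 2.12 to 2.65 for *Gja5* and -0.10 to 0.43 for *Gjc1*. In these fits 2 to 3 members were called, where 7.82% to 10.9% of all genes were called. *Gjc1* turned to -0.15 with E10 alone. In the fit of all 22 libraries, requiring 10 counts in every library removed *Gja4*, *Gja5* and *Gjc1*, which had CD44High libraries at 0. Only *Gja1* was then tested, so no other member could be called in any comparison of that fit. The members called were 1 for CD44High against CD44LowKitNeg, 0 against CD44LowKitPos and 1 against CD44Neg, and 0 for CD44LowKitPos against CD44LowKitNeg. Of all genes, 18%, 1.77%, 12.8% and 7.44% were called. With only the populations compared in the fit the members called were 2, 0, 3 and 0, beside 10.6%, 1.86%, 16.2% and 0.128% of all genes. E11 alone gave 2 for CD44High against CD44LowKitNeg, and limma voom 0 against CD44LowKitPos. For CD44LowKitPos against CD44LowKitNeg, stage as a covariate gave 1, or 0 with E9.5 and E10 alone, where 2.83% and 0.0169% of all genes were called. Without 1 library the counts were 2 to 4, 2 to 3 and 3 to 4 for CD44High against CD44LowKitNeg, CD44LowKitPos and CD44Neg, and 0 to 2 for CD44LowKitPos against CD44LowKitNeg and CD44Neg, where 9.87% to 16.9%, 1.86% to 2.90%, 9.95% to 14.4%, 0.48% to 5.33% and 1.17% to 4.65% of all genes were called. The interaction gave 1 by DESeq2 and 2 with no filter, *Gja1* and *Gja5*, where 0.976% and 1.19% of all genes were called. The stage comparison in CD44LowKitNeg gave 3 by DESeq2 and 1 by limma voom, with no filter, with 10 counts in every library and at adjusted p under 0.05, the last 3 beside 1.10%, 1.70% and 235 of all genes. That of E11 with E9.5 in CD44Neg gave 1 by DESeq2, limma voom, no filter (1.81% of all genes) and at 0.05 (352 genes). Without 1 library it gave 0 to 1, where 0.0682% to 0.674% of all genes were called. Small differences changed sign when 1 library was left out. *Gja1* in CD44LowKitPos against CD44LowKitNeg ran from -0.95 to 0.10, above 0 without replicate 14 or 17. *Gjc1* ran from -0.31 to 1.97 in the interaction, below 0 without replicate 11 or 15. In CD44Neg it ran from -0.30 to 0.11 in E10 against E9.5, above 0 without replicate 5, 7 or 8, and from -0.063 to 0.86 and -0.17 to 0.75 in E11 against E10 and E9.5, below 0 without replicate 3. Over all genes, CD44LowKitNeg against CD44Neg called 1121 by edgeR and 1746 by DESeq2, and the CD44LowKitNeg stage comparison 19 and 558. The cause of these differences was not tested. Leaving out *Rn45s*, an alternative chosen after seeing the data, changed no direction and no call of a member.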
